A study of Mus musculus with 32 samples.

Results

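Epididymal white adipose tissue (eWAT), the visceral fat depot beside the epididymis, was compared between mice that received corticosterone on a high protein diet (Cort HPD) and mice that received neither exposure (Veh NPD). The comparison took the 4 libraries of each of these groups, 8 of the 32 libraries in the series, by their labels, and asked what remained changed from the untreated state when both exposures were combined. All animals were C57BL/6 (C57BL/6J in the study's methods) males, 10 weeks of age, with no transgene or deletion, and were exposed for 7 days. Cort, the main glucocorticoid of mice, was given in the drinking water, and the veh groups drank its ethanol vehicle. Protein supplied 20% of the energy in the normal protein diet (NPD) and 60% in the HPD. Per the study's methods both diets were purified diets with whey protein, and corn starch was lowered in the HPD to match energy, so more protein and less starch cannot be told apart. The groups with a single exposure, Cort NPD and Veh HPD, had 4 eWAT libraries each and are given beside the results.

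RNA was read from the 3′ end of transcripts (QuantSeq), so that 1 transcript gives about 1 read whatever its length. The 8 libraries held 9794683 to 16468871 counts, and levels are given as CPM (counts scaled to a common library total) after scaling with edgeR's TMM factors. As a check of the tissue, the 12 markers of adipocytes on the list used were all detected, and their summed level was 41770 to 57670 CPM in Veh NPD and 36280 to 42770 CPM in Cort HPD. One library stood apart: in Cort HPD replicate 4, transcripts on a list of epididymis genes summed to 40270 CPM, against 0.710 to 26.4 CPM in the other 15 eWAT libraries. A total of 241 genes, those on the epididymis list and those at 5 CPM or more in this library and at least 5 times their level in any of the other 15, were set aside, and 101 of them were among the 15187 genes tested. The acute phase gene Lcn2 was among those set aside. B cell markers of the lymph node summed to 55.1 CPM in Veh NPD replicate 3 and to 2.83 to 5.93 CPM in the other Veh NPD libraries, so counts are also given without each of these libraries.

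**Figure D1:**
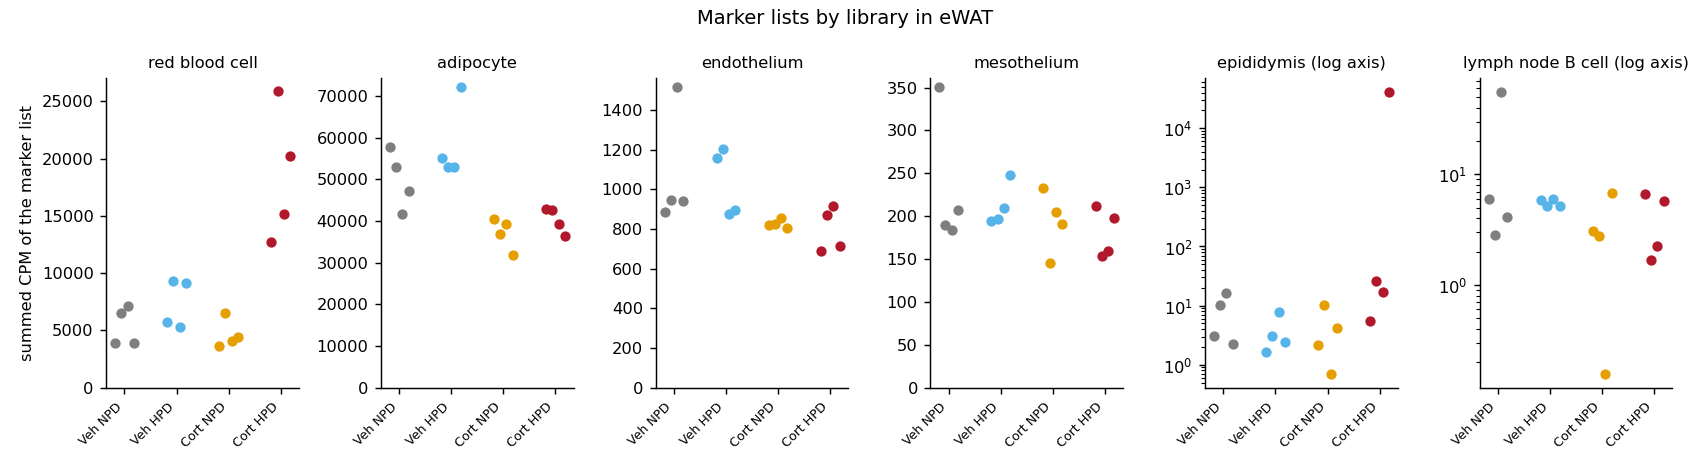
Summed level in CPM of 6 marker lists in each of the 16 eWAT libraries, with 1 point per library; the epididymis and lymph node B cell panels have log axes. The epididymis sum was 40270 CPM in Cort HPD replicate 4, and the red blood cell sum was 12700 to 25890 CPM in Cort HPD against 3893 to 7138 CPM in Veh NPD.

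As background, cort binds the glucocorticoid receptor, a transcription factor that enters the nucleus with its ligand, raises some genes through DNA response elements and lowers many genes of inflammation. In white fat, glucocorticoids act on adipocytes, where triacylglycerol is stored and released, and on the stromal and immune cells between them, which make matrix, present antigen and clear debris. Dietary protein and carbohydrate reach the same cells through amino acids, insulin and glucose, which act on genes of lipid synthesis and glycolysis.

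The sequences that lie before the strongest movers are shown first, since the 4 genes are referred to throughout. For Prrg3 and Ndrg2, which rose, and Retnla and H2-Aa, which fell, RefSeq promoter windows of GRCm38.p6 of 300 bases span the gene's start (Prrg3 chrX:71962375-71962674, + strand; Ndrg2 chr14:51913955-51914254, - strand; Retnla chr16:48842359-48842658, + strand; H2-Aa chr17:34287774-34288073, - strand). The window of H2-Eb1 (chr17:34305617-34305916, + strand), added after the values were seen, shows a second gene of MHC class II. Windows for Hp and H2-Ab1 are not shown.
Prrg3: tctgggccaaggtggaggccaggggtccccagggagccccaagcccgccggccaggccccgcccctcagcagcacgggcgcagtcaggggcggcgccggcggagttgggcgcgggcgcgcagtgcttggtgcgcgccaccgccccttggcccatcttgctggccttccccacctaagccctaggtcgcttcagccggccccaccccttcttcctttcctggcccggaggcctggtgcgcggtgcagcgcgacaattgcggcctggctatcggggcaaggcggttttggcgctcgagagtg
Ndrg2: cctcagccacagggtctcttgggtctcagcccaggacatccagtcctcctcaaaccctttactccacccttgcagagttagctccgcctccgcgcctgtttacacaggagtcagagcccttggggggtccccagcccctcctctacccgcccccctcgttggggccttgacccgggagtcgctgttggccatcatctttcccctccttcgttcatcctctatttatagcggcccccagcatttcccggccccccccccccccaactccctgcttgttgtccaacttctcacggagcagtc
Retnla: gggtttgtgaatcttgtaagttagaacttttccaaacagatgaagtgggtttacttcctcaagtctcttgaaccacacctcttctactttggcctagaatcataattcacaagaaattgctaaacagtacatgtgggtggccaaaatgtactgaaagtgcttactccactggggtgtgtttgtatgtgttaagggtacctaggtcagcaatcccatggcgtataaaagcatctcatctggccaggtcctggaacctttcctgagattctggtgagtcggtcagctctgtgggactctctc
H2-Aa: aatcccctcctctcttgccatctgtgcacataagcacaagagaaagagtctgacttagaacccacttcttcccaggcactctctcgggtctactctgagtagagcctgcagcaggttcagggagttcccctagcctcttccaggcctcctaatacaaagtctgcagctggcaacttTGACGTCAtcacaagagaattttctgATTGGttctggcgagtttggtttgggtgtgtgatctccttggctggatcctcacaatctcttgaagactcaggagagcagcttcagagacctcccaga
H2-Eb1: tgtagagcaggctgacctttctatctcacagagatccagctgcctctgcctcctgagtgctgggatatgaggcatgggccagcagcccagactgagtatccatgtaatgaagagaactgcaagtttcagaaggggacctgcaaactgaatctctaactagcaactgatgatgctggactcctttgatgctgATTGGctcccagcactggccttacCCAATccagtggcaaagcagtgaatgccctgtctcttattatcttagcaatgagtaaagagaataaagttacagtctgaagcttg
The letters AGAACA and its reverse complement TGTTCT, 1 arm of the glucocorticoid response element, were in none of these 5 windows, and 19.0% of all 27025 windows, 1 per gene, held them. The share was 12.3% among windows of the genes tested, 11.7% among genes called higher and 13.5% among genes called lower. Their absence here says only that the letters are not in these 300 bases. Capitals in the class II windows mark TGACG or its reverse complement CGTCA, the core of a cyclic AMP response element and of the X2 box, and CCAAT or ATTGG, the core of the Y box. Class II promoters are known for an X and Y box pair that serves the regulator Ciita. The H2-Aa window held TGACG at base -74, overlapping CGTCA at base -71, and ATTGG at base -48 from its start. H2-Eb1 held ATTGG at base -59 and CCAAT at base -35, and neither TGACG nor CGTCA. Over all windows, 5681 held TGACG or CGTCA and 10248 held CCAAT or ATTGG, so each set of letters alone is common. The share with TGACG or CGTCA was 30.7% among genes tested, 29.3% among genes called higher and 17.6% among genes called lower. For CCAAT or ATTGG the shares were 38.1%, 38.6% and 42.1% in the same order.

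Combined exposure changed 1005 of the 15086 genes that were tested and not set aside, 6.66% of them, by edgeR's quasi-likelihood test at a Benjamini-Hochberg adjusted p under 0.05. Of these, 502 (3.33%) rose and 503 (3.33%) fell, with a median log2 fold change of 0.78 among the risers and -0.97 among the fallers, and the median over all genes tested was 0.00. The counts of list members called against Veh NPD in what follows stand against these shares of 3.33% in each direction. At least 2-fold changes were seen in 155 risers and 238 fallers, and at least 4-fold changes in 40 and 61. The levels of the 4 Cort HPD and the 4 Veh NPD libraries did not overlap for 898 of the 1005 genes, while over all genes 13.4% did not overlap, 6.6% with Cort HPD higher and 6.8% with Cort HPD lower. Genes named below for the smallest p in each direction were taken only from called genes without overlap. Their separation, where it is described, was thus set by that choice and adds no support. Without Cort HPD replicate 4 the test called 833 genes, and without Veh NPD replicate 3 it called 712. It called 670 without Cort HPD replicate 3, with 325 rather than 502 risers.

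**Figure D2:**
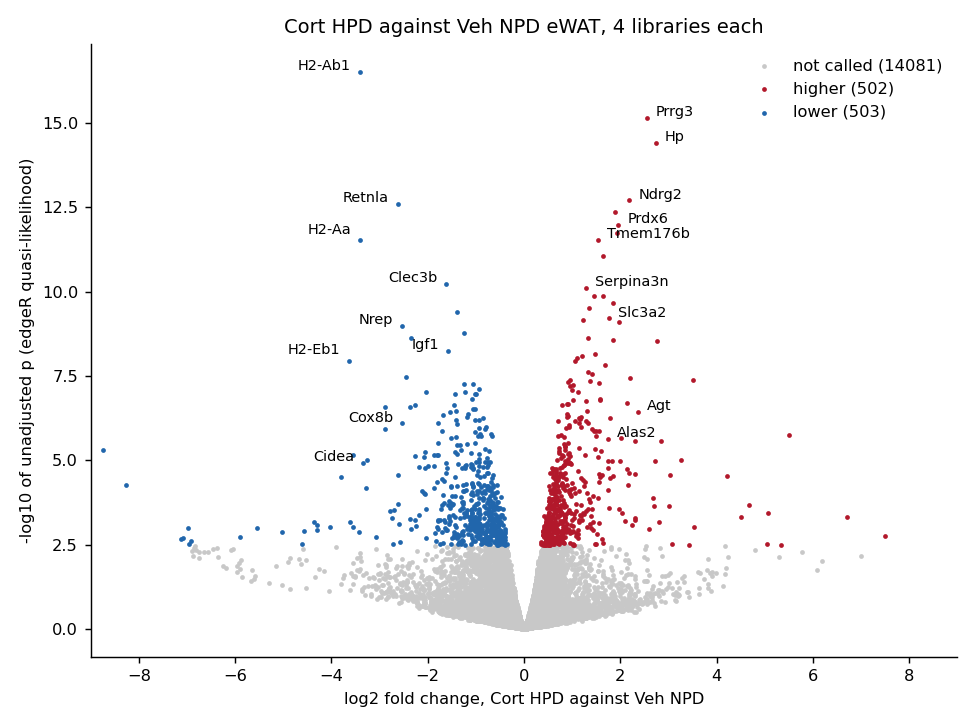
Each point is 1 gene, with the log2 fold change of Cort HPD against Veh NPD on the x axis and -log10 of the unadjusted p of edgeR's quasi-likelihood test on the y axis. Red points are the 502 genes called higher and blue points the 503 called lower. H2-Ab1, Retnla and H2-Aa lead the fallers, and Prrg3, Hp and Ndrg2 the risers.

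Among the genes that rose, Prrg3 had the smallest p. Prrg3 (ENSMUSG00000033361, chrX:71962624-71972722, GRCm38), a membrane protein with a vitamin K dependent Gla domain, was at 61.3, 77.3, 68.96 and 86.8 CPM in Veh NPD replicates 1 to 4 and at 426, 356, 540 and 404 CPM in Cort HPD. Every Cort HPD library lay far above every Veh NPD library, and the log2 fold change was 2.55 (SE 0.15, edgeR adjusted p = 5.4e-12). Hp (ENSMUSG00000031722, chr8:109575128-109579172), haptoglobin, the acute phase protein that binds free haemoglobin, was at 1177, 861, 1008 and 1290 CPM in Veh NPD and 7342, 6572, 7748 and 7169 CPM in Cort HPD. Its groups were again wide apart, with a log2 fold change of 2.73 (SE 0.17, edgeR adjusted p = 2e-11). Ndrg2 (ENSMUSG00000004558, chr14:51905271-51914158), a cytoplasmic protein of the NDRG family, was at 148, 132, 184 and 207 CPM in Veh NPD and 833, 706, 821 and 689 CPM in Cort HPD. That gene rose by 2.18 on the log2 scale (SE 0.16, edgeR adjusted p = 7.4e-10).

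Prdx6, a peroxiredoxin that reduces phospholipid peroxides, was at 454, 469, 396 and 520 CPM in Veh NPD and 1873, 1581, 1975 and 1714 CPM in Cort HPD, a log2 fold change of 1.96 (SE 0.16, edgeR adjusted p = 2.2e-09). Serpina3n, a secreted serine protease inhibitor with close relatives in its gene family, was at 294, 258, 322 and 337 CPM and rose to 761, 806, 742 and 654 CPM, a log2 fold change of 1.29 (SE 0.12, edgeR adjusted p = 8.9e-08). Agt, angiotensinogen, the precursor of angiotensin, was at 305, 312, 195 and 238 CPM in Veh NPD and at 1261, 1313, 1398 and 1445 CPM in Cort HPD. In none of these 3 genes did a Cort HPD library reach down to a Veh NPD library, and Agt rose by 2.37 on the log2 scale (SE 0.27, edgeR adjusted p = 7.5e-05). Tmem176a and Tmem176b, membrane proteins of myeloid and other cells whose genes overlap head to head, rose by 1.88 and 1.53, and Fhl1, a LIM domain protein, by 1.63. Syn2, a synapsin, rose by 1.64 and Timp4, an inhibitor of matrix metalloproteases, by 1.46. Timp4 lies inside Syn2 on the other strand and no strand setting is stated, so reads of one gene may have been counted for the other, which was not tested. The edgeR adjusted p of these 5 genes lay between 1.1e-09 and 1.4e-07.

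MHC class II, the machinery that presents extracellular peptides to T cells, held the gene with the smallest p. Of the 9 class II genes tested, 7 fell and none rose, against 3.33% of all genes that fell, and their median log2 fold change was -2.90 against 0.00 over all genes. H2-Ab1 (ENSMUSG00000073421, chr17:34257689-34269419), the beta chain of the I-A molecule, was at 406, 377, 346 and 347 CPM in Veh NPD and 31.8, 30.2, 39.4 and 37.6 CPM in Cort HPD, 10.6-fold lower. Its log2 fold change was -3.41 (SE 0.17, edgeR adjusted p = 4.6e-13), the smallest p in the comparison. Its partner H2-Aa, the alpha chain, was at 552, 553, 440 and 464 CPM and fell to 34.0, 41.6, 55.2 and 58.7 CPM (log2 fold change -3.40, SE 0.22, edgeR adjusted p = 4.4e-09). H2-Eb1, the beta chain of I-E, was at 465, 413, 446 and 398 CPM and fell to 19.4, 24.2, 41.5 and 52.6 CPM (log2 fold change -3.64, SE 0.31, edgeR adjusted p = 5.2e-06). For all 3 chains no Cort HPD library came near a Veh NPD library. H2-DMa, which helps to load the peptide, was at 34.3, 33.5, 50.5 and 46.6 CPM in Veh NPD and 5.65, 4.74, 6.38 and 14.9 CPM in Cort HPD, with replicate 4 the highest of the 4. The other members that fell were Cd74, the invariant chain, H2-DMb1 and Ciita. The class II median was -3.48 without Cort HPD replicate 3 and -3.24 without replicate 4. In bulk tissue, fewer antigen presenting cells and less of this RNA per cell cannot be told apart.

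Genes of class I presentation fell less. All 15 tested members, which present peptides from inside the cell, had a negative log2 fold change, 9 of them fell by the test, against 3.33% of all genes, and the median was -0.83. H2-K1, a classical class I heavy chain with near-identical relatives, was at 1168, 1129, 786 and 670 CPM in Veh NPD and 480, 421, 459 and 482 CPM in Cort HPD (log2 fold change -1.03, SE 0.14, edgeR adjusted p = 3e-05). Psmb8, a catalytic subunit of the immunoproteasome, was at 59.5, 48.5, 37.8 and 33.8 CPM and fell to 19.0, 21.7, 20.5 and 24.2 CPM (log2 fold change -1.07, SE 0.20, edgeR adjusted p = 0.0013). Tapbp, tapasin, which bridges class I molecules to the peptide transporter, fell by 0.50. Groups did not overlap for any of the 3, although Veh NPD replicates 1 and 2 were well above replicates 3 and 4 for H2-K1 and Psmb8. Without Veh NPD replicate 1, or without replicate 2, only 4 class I genes were called, and without replicate 2 the median was -0.60. H2-Q10, a class I gene with close relatives, was at 25.6, 22.9, 15.1 and 13.8 CPM in Veh NPD and 3.47, 5.90, 1.93 and 2.96 CPM in Cort HPD. It fell by 2.46 on the log2 scale (SE 0.32, edgeR adjusted p = 1.4e-05), with no overlap between the groups.

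Markers of macrophages and dendritic cells fell in part. Of 28 tested, 8 fell, against 3.33% of all genes, and none rose (Retnla, Mgl2, Ccr2, Adgre1, Itgam, Mrc1, Cd209a and Xcr1), the median log2 fold change was -0.24, 5 fell without Cort HPD replicate 4, and 1 rose without Veh NPD replicate 2. Retnla (ENSMUSG00000061100, chr16:48842551-48844461), a secreted protein of alternatively activated macrophages, was at 1298, 1431, 1079 and 1444 CPM in Veh NPD and 226, 181, 203 and 246 CPM in Cort HPD. The 6.14-fold decrease kept the groups apart in every library (log2 fold change -2.62, SE 0.18, edgeR adjusted p = 7.6e-10). Mgl2, a lectin of macrophages and dendritic cells, was at 105, 87.5, 82.8 and 93.6 CPM and fell to 46.0, 46.1, 47.1 and 37.0 CPM (log2 fold change -1.07, SE 0.14, edgeR adjusted p = 1.9e-05). Adgre1, which encodes the pan-macrophage antigen F4/80, fell by 0.84 (SE 0.17, edgeR adjusted p = 0.0019), from 35.4 to 47.8 CPM in Veh NPD to 21.4 to 29.1 CPM in Cort HPD. Ccr2, the receptor by which monocytes enter tissue, fell by 1.62 (SE 0.28, edgeR adjusted p = 0.0016). Outside the list, Fcrls, an Fc receptor-like gene of macrophages, was at 40.0, 32.2, 34.3 and 39.3 CPM and fell to 7.02, 7.79, 7.25 and 6.69 CPM (log2 fold change -2.34, SE 0.26, edgeR adjusted p = 1.4e-06).

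The lymphocyte markers tested had negative log2 fold changes, but few reached the threshold. The whole list of 28 markers summed to 198.6 to 576.5 CPM in Veh NPD and 178.6 to 332.4 CPM in Cort HPD, and these ranges overlap. All 18 tested had a negative log2 fold change, with a median of -1.37, yet the test called Cd2 alone, an adhesion receptor of T and NK cells. None was called with the replicate block or with no filter, and 4 were with DESeq2. Cd2 was not called without Veh NPD replicate 2, 3 or 4 or Cort HPD replicate 1 or 3, so that 0 of the 18 were, 2 were called without Cort HPD replicate 2, and the median was -1.33 without Veh NPD replicate 3, the library with B cell transcripts. Among 21 chemokines, 6 fell, against 3.33% of all genes, and none rose (1 rose without Veh NPD replicate 3), with a median of -0.77. Ccl8, which attracts monocytes, was at 19.2, 17.4, 16.6 and 10.1 CPM in Veh NPD and 4.36, 3.79, 3.59 and 1.42 CPM in Cort HPD (log2 fold change -2.27, SE 0.33, edgeR adjusted p = 5.3e-05). Ccl5, a T cell chemoattractant, was at 16.1, 19.7, 12.4 and 6.06 CPM and fell to 2.18, 1.37, 1.73 and 1.995 CPM (log2 fold change -2.89, SE 0.46, edgeR adjusted p = 1.7e-04). Cxcl9, an interferon gamma target, fell by 1.79 (SE 0.25, edgeR adjusted p = 1.3e-04), and Ccl9, Cxcl12 and Ccl11 fell as well. In each of the 3 chemokines with values given, Veh NPD replicate 4 was the lowest untreated library and still lay above every Cort HPD library.

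Acute phase and complement genes split. Of 20 tested, Hp and Cp (ceruloplasmin, the copper carrier) rose and 6 complement genes fell: C2, Cfb, C1ra, C1s1, Cfd and C4b. Cp was the member whose call depended on single libraries, since only 1 gene of the list was called higher without Veh NPD replicate 3 or 4 or Cort HPD replicate 1, 3 or 4. C2, a protease of the classical pathway, was at 213, 165, 122 and 91.9 CPM in Veh NPD and 53.9, 53.7, 62.5 and 55.7 CPM in Cort HPD (log2 fold change -1.39, SE 0.20, edgeR adjusted p = 1.3e-04). Cfb, factor B of the alternative pathway, was at 96.7, 68.5, 87.5 and 87.4 CPM and fell to 46.5, 52.8, 51.7 and 47.9 CPM (log2 fold change -0.77, SE 0.14, edgeR adjusted p = 7.6e-04). The Cort HPD libraries lay close together for both genes, while those of Veh NPD ranged more widely for C2. C1ra, a protease of the first complement complex, fell by 0.65 (SE 0.14, edgeR adjusted p = 0.0046).

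**Figure D3:**
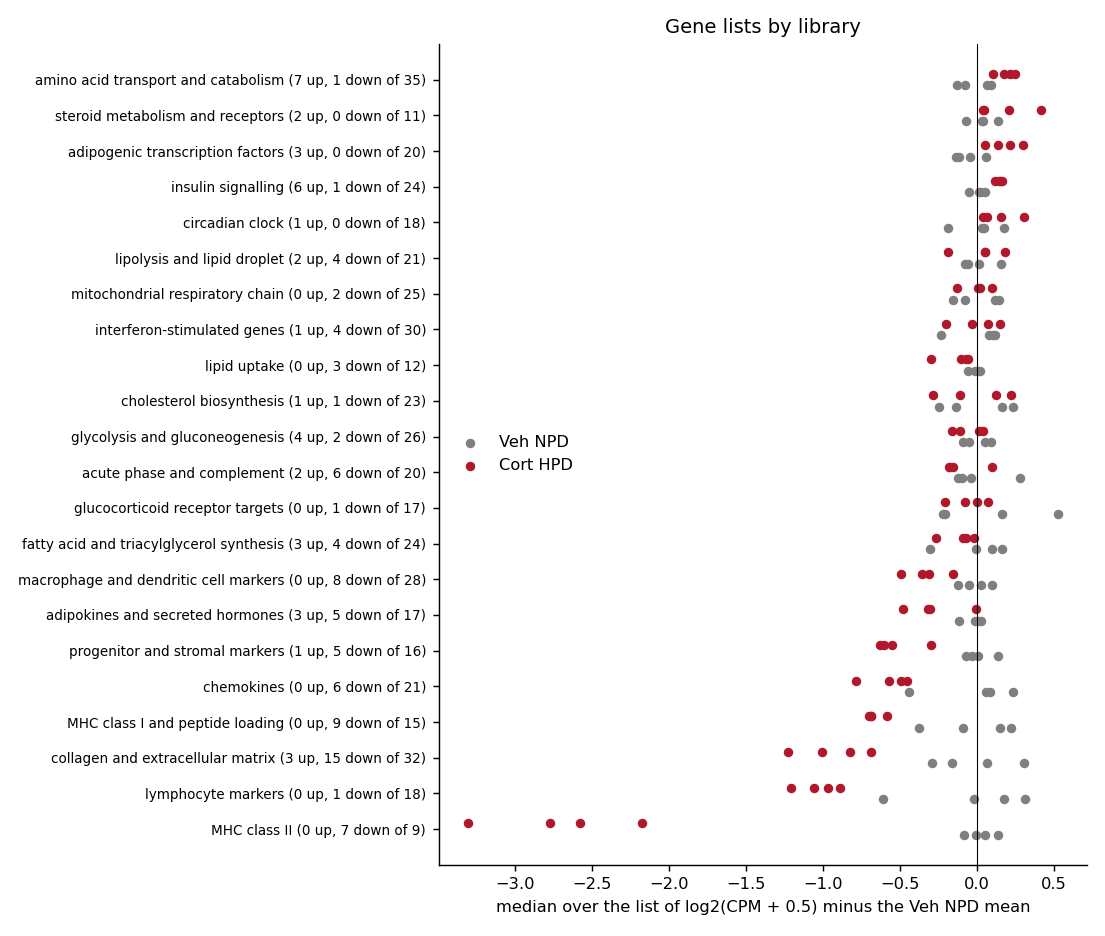
Median, over the tested genes of each list, of log2(CPM + 0.5) minus its Veh NPD mean, for the 4 Veh NPD libraries (grey) and the 4 Cort HPD libraries (red); the labels give the genes called higher and lower of those tested. The MHC class II, lymphocyte and matrix lists lie lowest, with their Cort HPD libraries clear of all Veh NPD libraries. The same held for other lists, among them class I, chemokines and progenitor and stromal markers.

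Of 32 collagen and matrix genes tested, 15 fell, 3 rose (Lox, Timp4 and Col18a1) and 14 were not called, against 3.33% of all genes called in each direction, and the median log2 fold change was -1.08. Those that fell were Lum, Mmp2, Col5a2, Col15a1, Col1a2, Col6a3, Postn, Loxl2, Timp3, Col3a1, Col6a2, Bgn, Fn1, Col1a1 and Col6a1. Among them were chains of fibrillar collagens I and III, and of collagen V only Col5a2. Lum, lumican, which spaces collagen fibrils, was at 28.8, 44.97, 52.8 and 48.0 CPM in Veh NPD and 12.99, 13.5, 17.4 and 21.2 CPM in Cort HPD (log2 fold change -1.42, SE 0.22, edgeR adjusted p = 1.1e-04). Mmp2, a gelatinase, was at 26.6, 32.3, 39.0 and 25.9 CPM and fell to 7.75, 9.58, 12.96 and 7.40 CPM (log2 fold change -1.71, SE 0.27, edgeR adjusted p = 1.9e-04). Against this direction, Lox, the lysyl oxidase that crosslinks collagen and elastin, was at 53.4, 53.5, 61.0 and 58.1 CPM in Veh NPD and 214, 198, 260 and 184 CPM in Cort HPD. Lox rose by 1.92 on the log2 scale (SE 0.16, edgeR adjusted p = 3.4e-09), with every Cort HPD library above the highest Veh NPD library.

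Other genes with the smallest p among the fallers follow. Clec3b, tetranectin, a plasminogen-binding protein, was at 77.3, 79.8, 65.7 and 73.5 CPM in Veh NPD and 23.9, 19.4, 25.0 and 27.9 CPM in Cort HPD (log2 fold change -1.62, SE 0.15, edgeR adjusted p = 7.6e-08). Ltbp4, which holds latent TGF-beta in the matrix, was at 107, 108, 157 and 112 CPM and fell to 42.4, 46.4, 47.3 and 48.6 CPM (log2 fold change -1.39, SE 0.15, edgeR adjusted p = 3.5e-07). Nrep, a neuronal regeneration related protein, was at 30.4, 28.4, 43.0 and 34.4 CPM and fell to 3.23, 7.69, 5.52 and 7.01 CPM (log2 fold change -2.54, SE 0.28, edgeR adjusted p = 7.1e-07). These genes were named from those without overlap, so their highest Cort HPD library lay below the lowest Veh NPD library by choice. Prss23, a serine protease, fell by 1.25, and Serpinf1, the secreted factor PEDF, fell by 1.24. Of 16 markers of adipocyte progenitors and stroma, 5 fell (Thy1, Pi16, Cd34, Ly6a and Dpp4), against 3.33% of all genes, and Fmo2, a flavin monooxygenase, rose. The lower count was 3 without Veh NPD replicate 2 or 3 or Cort HPD replicate 4. Thy1, a surface marker of fibroblasts, was at 19.6, 16.01, 25.9 and 26.7 CPM in Veh NPD and 6.29, 6.63, 4.52 and 4.25 CPM in Cort HPD (log2 fold change -2.03, SE 0.28, edgeR adjusted p = 2.8e-05). Pi16, a marker of adventitial fibroblasts, fell by 1.66 (SE 0.34, edgeR adjusted p = 0.0024).

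Endothelial and mesothelial markers fell in part. Of 14 endothelial genes, Cldn5, Gpihbp1, Esam and Cdh5 fell, against 3.33% of all genes, and their list's summed level was 691 to 917 CPM in Cort HPD against 884 to 1517 CPM in Veh NPD, where replicate 3 held the highest sum and replicates 1, 2 and 4 lay at 884 to 947 CPM. Without Veh NPD replicate 3 only 2 fell and 1 rose. Cldn5, the claudin of endothelial tight junctions, was at 59.4, 41.2, 71.2 and 50.4 CPM and fell to 11.8, 17.6, 23.1 and 24.4 CPM (log2 fold change -1.53, SE 0.22, edgeR adjusted p = 7.5e-05). Msln and Gpm6a fell among 11 mesothelial genes, whose sums of 153 to 212 CPM in Cort HPD overlapped the 184 to 350 CPM of Veh NPD. The mesothelial count was 0 without Veh NPD replicate 1 or Cort HPD replicate 4 and 1 without Veh NPD replicate 4 or Cort HPD replicate 3.

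Lipid genes showed no common direction against Veh NPD. Of 24 genes of fatty acid and triacylglycerol synthesis, 3 rose (Mlxipl, Acsl1 and Pnpla3) and 4 fell (Elovl5, Scd1, Slc25a1 and Mogat1), against 3.33% of all genes in each direction, with a median of -0.21. Scd1, the desaturase that makes oleate, was at 16890, 16400, 15950 and 13610 CPM in Veh NPD and 4496, 10900, 4575 and 6246 CPM in Cort HPD. All 4 Cort HPD libraries were lower, but replicate 2 was far above the other Cort HPD libraries (log2 fold change -1.26, SE 0.26, edgeR adjusted p = 0.0068). Elovl5, an elongase of polyunsaturated fatty acids, was at 104, 101, 98.9 and 88.6 CPM and fell to 43.2, 51.6, 57.1 and 45.1 CPM (log2 fold change -0.995, SE 0.14, edgeR adjusted p = 3e-05). In the other direction Mlxipl, which encodes the carbohydrate sensor ChREBP, was at 28.1, 35.1, 22.8 and 28.1 CPM and rose to 53.8, 64.3, 53.5 and 48.5 CPM (log2 fold change 0.95, SE 0.18, edgeR adjusted p = 9.7e-04). Acsl1, which activates fatty acids with coenzyme A, rose by 0.76 (SE 0.17, edgeR adjusted p = 0.0079). Among cholesterol synthesis genes, Insig1, which holds SREBP in the endoplasmic reticulum, fell by 1.70 (SE 0.34, edgeR adjusted p = 0.0078). Without Veh NPD replicate 2, 2 cholesterol genes were called lower.

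On the side of lipid release and droplets, 2 of 21 genes rose and 4 fell, against 3.33% of all genes in each direction. G0s2, an inhibitor of the lipase ATGL, was at 204, 293, 434 and 315 CPM in Veh NPD and 780, 660, 751 and 627 CPM in Cort HPD (log2 fold change 1.18, SE 0.17, edgeR adjusted p = 9.8e-05). Adora1, the antilipolytic adenosine A1 receptor, was at 55.4, 53.6, 51.4 and 51.9 CPM and rose to 142, 170, 150 and 136 CPM (log2 fold change 1.49, SE 0.22, edgeR adjusted p = 2.4e-04). Both inhibitors of lipolysis were higher in every Cort HPD library. Aqp7, the channel by which glycerol leaves the adipocyte, was at 145, 100, 133 and 114 CPM and fell to 69.8, 68.9, 62.1 and 55.9 CPM (log2 fold change -0.94, SE 0.13, edgeR adjusted p = 2.5e-05). Mgll, the monoacylglycerol lipase, and Hcar2, an antilipolytic receptor for hydroxybutyrate and nicotinate, fell too. Cidea, a lipid droplet protein that is abundant in brown fat, was at 7.17, 5.66, 7.19 and 4.62 CPM in Veh NPD and 0, 1.37, 0.731 and 0.386 CPM in Cort HPD. The 0 in Cort HPD replicate 1 allows up to 0.242 CPM (3 counts, counting error only), and Cidea fell by 3.34 on the log2 scale (SE 0.62, edgeR adjusted p = 9.7e-04). Cox8b, another gene abundant in brown fat, was at 24.5, 28.0, 20.0 and 18.3 CPM and fell to 4.28, 4.74, 3.26 and 3.54 CPM (log2 fold change -2.53, SE 0.37, edgeR adjusted p = 1.3e-04). The brown fat list of 7 genes summed to 28.8 to 44.2 CPM in Veh NPD and 11.1 to 27.5 CPM in Cort HPD, and skeletal muscle markers summed to 66.6 to 202 CPM and 15.8 to 31.8 CPM. The part of either tissue in these results was not tested. For the uptake of lipid, 3 of 12 genes fell: Lpl, lipoprotein lipase, Gpihbp1, its anchor on capillaries, and Fabp5, a fatty acid carrier. The test called 1 of them without Veh NPD replicate 3 or Cort HPD replicate 4.

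Among 26 genes of glycolysis and gluconeogenesis, 4 rose and 2 fell, against 3.33% of all genes in each direction. Pfkfb3, which makes the activator of phosphofructokinase, was at 271, 305, 343 and 208 CPM in Veh NPD and 761, 656, 806 and 594 CPM in Cort HPD (log2 fold change 1.32, SE 0.17, edgeR adjusted p = 1e-05). Hk2, the insulin-responsive hexokinase, was at 95.2, 91.6, 79.1 and 96.5 CPM and rose to 179, 155, 168 and 170 CPM (log2 fold change 0.89, SE 0.13, edgeR adjusted p = 5.3e-05). Slc2a4, the glucose transporter GLUT4, and Gpi1, glucose phosphate isomerase, rose as well. Pfkp, the platelet phosphofructokinase, and Gapdh fell. The rise was called for 2 genes without Veh NPD replicate 2 or 3, and the fall for 1 gene without Veh NPD replicate 2 or 4 or any of the 4 Cort HPD libraries.

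Of 35 genes of amino acid transport and catabolism, 7 rose (Slc3a2, Slc7a8, Slc7a10, Trib3, Ivd, Slc1a5 and Atf4), Slc43a1 fell and 27 were not called, against 3.33% of all genes in each direction, with a median of 0.22. Slc3a2, the heavy chain CD98 shared by several exchangers, was at 128, 178, 138 and 188 CPM in Veh NPD and 490, 386, 619 and 667 CPM in Cort HPD (log2 fold change 1.77, SE 0.18, edgeR adjusted p = 4.9e-07). Slc7a8, LAT2, a light chain that pairs with it, was at 13.6, 28.3, 22.5 and 27.3 CPM and rose to 60.4, 60.2, 73.1 and 81.4 CPM (log2 fold change 1.59, SE 0.25, edgeR adjusted p = 5.5e-04). Slc7a10, a serine and glycine transporter of adipocytes, was at 94.7, 95.4, 142 and 121 CPM and at 180, 184, 166 and 140 CPM, where Cort HPD replicate 4 fell just below Veh NPD replicate 3 (log2 fold change 0.57, SE 0.13, edgeR adjusted p = 0.0079). Only 3 genes of the list were called higher without Veh NPD replicate 3 or 4, and none was called lower without Veh NPD replicate 1 or Cort HPD replicate 4.

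Among 17 genes usually read as targets of the glucocorticoid receptor, none rose by the test and Sgk1, a serum and glucocorticoid regulated kinase, fell, with a median of -0.18. One call in 17 is near the 6.66% over all genes, and DESeq2 called 3 lower and 1 higher. Limma voom, voom with quality weights and the 2 groups alone also called 1 higher. The fall of Sgk1 was not called without Veh NPD replicate 2 or Cort HPD replicate 1 or 3, and without Veh NPD replicate 2 the list's median was 0.08. Fkbp5, a co-chaperone that restrains the receptor, was at 59.3, 70.7, 37.2 and 62.8 CPM in Veh NPD and 122, 143, 143 and 176 CPM in Cort HPD. Its groups did not overlap, but its log2 fold change of 1.35 (SE 0.39) missed the threshold (edgeR adjusted p = 0.061) in the fit of 4 groups. Fkbp5 was called by DESeq2 (adjusted p = 0.0094), limma voom (0.0062), voom with quality weights (0.0017) and edgeR on the 2 groups alone (0.00019). Tsc22d3, which encodes the mediator GILZ, was at 201, 378, 162 and 383 CPM in Veh NPD and 276, 262, 327 and 275 CPM in Cort HPD, inside the untreated range (log2 fold change 0.02, SE 0.33, edgeR adjusted p = 0.98). Nr3c1, the receptor itself, was at 118, 131, 155 and 121 CPM and at 113, 134, 120 and 107 CPM (log2 fold change -0.15, SE 0.13, edgeR adjusted p = 0.60). Of 11 genes of steroid metabolism, H6pd and Hsd11b1, the pair that supplies NADPH to and reactivates glucocorticoid inside cells, rose. Hsd11b1 was at 166, 195, 136 and 152 CPM in Veh NPD and 536, 406, 418 and 352 CPM in Cort HPD (log2 fold change 1.40, SE 0.33, edgeR adjusted p = 0.022). No gene of that list was called without Veh NPD replicate 1 or 3 or Cort HPD replicate 1 or 3, and 1 without Veh NPD replicate 4.

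Of the 12 adipocyte markers, Slc7a10 rose and Adig, a small adipogenic protein, Adipoq and Cfd, the protease adipsin, fell. The test called 1 of them lower without Veh NPD replicate 1 or Cort HPD replicate 3 or 4, and 2 higher without Veh NPD replicate 4.

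Hormones and growth factors from fat moved in both directions. Of 17 adipokines, Serpina3n, Agt and Nampt rose and Igf1, Rarres2, Apln, Adipoq and Rbp4 fell. Igf1 (ENSMUSG00000020053, chr10:87858265-87937042), insulin-like growth factor 1, was at 450, 485, 413 and 316 CPM in Veh NPD and 136, 168, 122 and 132 CPM in Cort HPD, 2.98-fold lower, with no overlap between the groups (log2 fold change -1.58, SE 0.18, edgeR adjusted p = 3e-06). Igfbp3 and Igfbp4, 2 of its binding proteins, went the other way. Igfbp3, which carries IGF1 in plasma, was at 6.73, 14.96, 9.68 and 9.99 CPM and rose to 48.3, 35.1, 28.1 and 30.1 CPM (log2 fold change 1.78, SE 0.26, edgeR adjusted p = 1e-04), and Igfbp4 rose by 0.70 (SE 0.11, edgeR adjusted p = 1.1e-04). Of 24 genes of insulin signalling, these 2 rose with Socs3, a feedback inhibitor, Slc2a4, Insr and Pik3cb, and Igf1 was the faller. The count of risers was 3 without Veh NPD replicate 2 or 3. Adipoq, adiponectin, was at 8409, 6695, 5402 and 6074 CPM in Veh NPD and 5036, 4580, 4325 and 4236 CPM in Cort HPD. Although no library overlapped, the fall of 0.55 (SE 0.14, edgeR adjusted p = 0.019) was not called without Veh NPD replicate 1 (adjusted p = 0.097), Cort HPD replicate 3 (0.063) or Cort HPD replicate 4 (0.061). Lep, leptin, was at 444, 604, 778 and 1470 CPM and at 1655, 1610, 2317 and 1988 CPM, a log2 fold change of 1.20 (SE 0.37, edgeR adjusted p = 0.078) that passed the threshold by DESeq2 (adjusted p = 0.021), by voom (0.0034) and once Veh NPD replicate 4 was left out (1.63, adjusted p = 0.0079). Adipokines that fell numbered 2 once Cort HPD replicate 3 was left out, and 3 without Veh NPD replicate 1 or 3 or Cort HPD replicate 4.

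Of 20 adipogenic transcription factors, Zfp423, Cebpa and Ebf1 rose and none fell. Cebpa, C/EBP alpha, was at 408, 331, 325 and 321 CPM in Veh NPD and 580, 512, 589 and 498 CPM in Cort HPD (log2 fold change 0.65, SE 0.14, edgeR adjusted p = 0.0038). Pparg, the adipocyte's lipid-sensing receptor, was at 91.2, 254, 118 and 117 CPM and 332, 341, 185 and 177 CPM, with Veh NPD replicate 2 inside the Cort HPD range (log2 fold change 0.84, SE 0.37, edgeR adjusted p = 0.24). With Veh NPD replicate 2 left out, Pparg was called (1.25, adjusted p = 0.045) and the list held 5 risers. Of 18 clock genes 1 rose, near the 3.33% over all genes, and 2 rose with DESeq2, voom with quality weights, the replicate block or the 2 groups alone. The riser was Bhlhe41, a repressor, with 6.49, 6.92, 9.81 and 4.62 CPM in Veh NPD and 21.1, 13.5, 18.8 and 42.9 CPM in Cort HPD (log2 fold change 1.79, SE 0.34, edgeR adjusted p = 0.0020). Of 25 genes of the mitochondrial list, Cox8b and Ucp2, an inner membrane carrier of the uncoupling protein family, fell and none rose.

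The values beside the single exposures show where the combined state sat. Cort NPD, Veh HPD and Cort HPD were each set against the same Veh NPD libraries, so these log2 fold changes share their error, and the difference of Cort HPD from Cort NPD was tested on its own. Against Cort NPD, 73 genes (0.484%) differed in Cort HPD, 30 (0.199%) higher and 43 (0.285%) lower by edgeR's quasi-likelihood test, and with library totals in place of TMM factors 38 were higher and 34 lower. The count was 26, 47 and 42 without Cort NPD replicates 1, 3 and 4, and 30 and 41 without Cort HPD replicates 3 and 4. Prrg3, Hp, Ndrg2, Lox, Retnla and Igf1 were not among these 73. Prrg3 had a log2 fold change of 2.57 in Cort NPD, -0.19 in Veh HPD and 2.55 in Cort HPD. For Hp the values were 2.57, 0.60 and 2.73, for Ndrg2 1.87, 0.66 and 2.18, for Lox 2.15, -0.03 and 1.92, for Retnla -2.91, -0.45 and -2.62, and for Igf1 -1.50, -0.07 and -1.58. Cort HPD against Cort NPD gave -0.02 (SE 0.14) for Prrg3, 0.17 (SE 0.16) for Hp and -0.08 (SE 0.17) for Igf1. For the matrix list the medians were -0.81 in Cort NPD, -0.39 in Veh HPD and -1.08 in Cort HPD. For fatty acid and triacylglycerol synthesis they were 0.56, -0.40 and -0.21 in the same order. Of its 24 genes, 3 (Me1, Slc25a1 and Scd1) were lower in Cort HPD than in Cort NPD, against 0.285% of all genes, and none was higher. Cholesterol synthesis had medians of 0.64, -0.49 and -0.07, and none of its 23 genes was called between the cort groups.

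**Figure D4:**
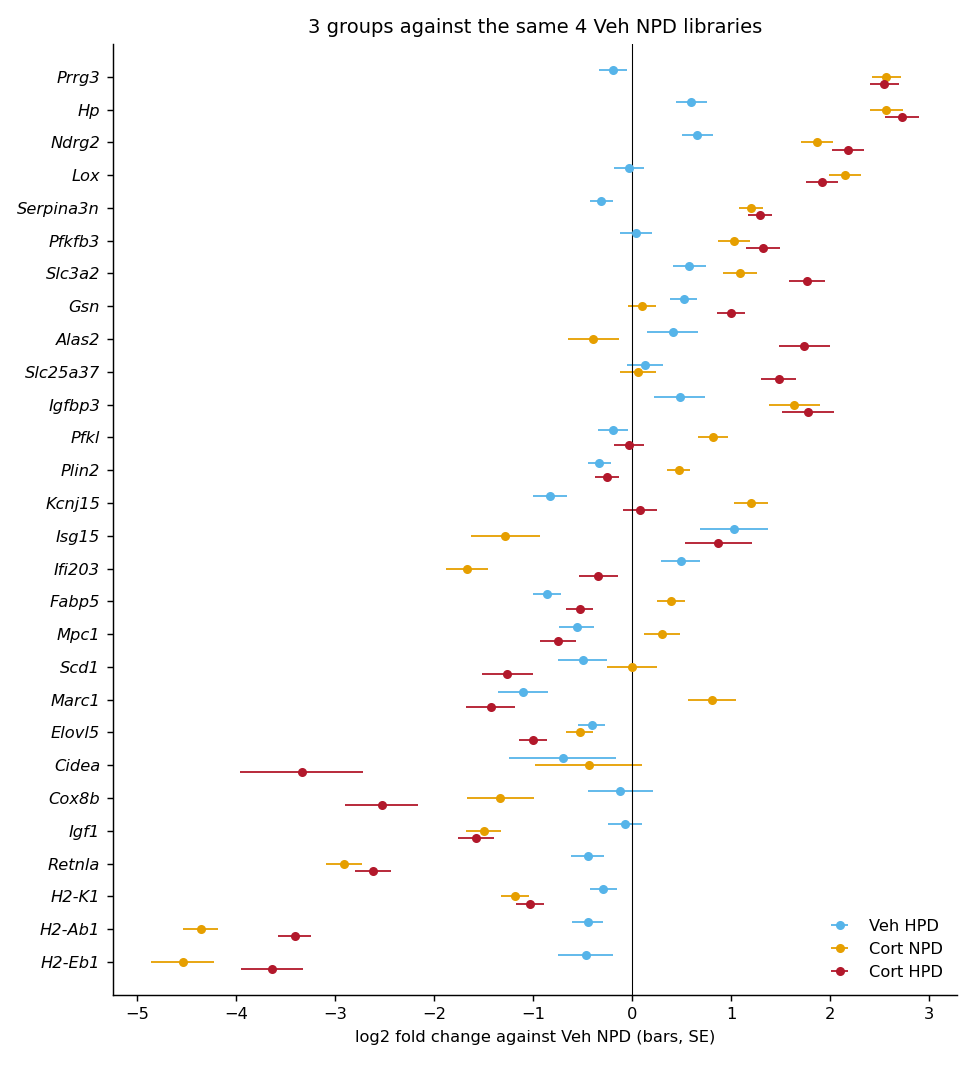
Log2 fold change with its SE against the same 4 Veh NPD libraries for Veh HPD (blue), Cort NPD (orange) and Cort HPD (red), 1 line per gene. Prrg3, Hp, Lox and Igf1 lie alike in both cort groups, Kcnj15 and Pfkl lie near 0 in Cort HPD, and Alas2, Slc25a37 and Gsn are furthest from 0 in Cort HPD.

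H2-Ab1 was far below control in both cort groups and still differed between them. It was at 15.8 to 21.8 CPM in Cort NPD, below every Cort HPD library (30.2 to 39.4 CPM), a log2 difference of 0.95 (SE 0.16, edgeR adjusted p = 0.0035) that was not called by limma voom (adjusted p = 0.071). For H2-Aa the difference was 0.93 (SE 0.21, edgeR adjusted p = 0.051) and for H2-Eb1 0.90 (SE 0.29, edgeR adjusted p = 0.29). The class II median was -4.02 in Cort NPD, -0.47 in Veh HPD and -2.90 in Cort HPD. Between the cort groups, 1 of the 9 genes was called higher in Cort HPD, against 0.199% of all genes. H2-Q10 was lower in Cort HPD than in Cort NPD by 1.53 (SE 0.32, edgeR adjusted p = 0.021), a call lost without Cort NPD replicate 1 (0.13) or 4 (0.06) or Cort HPD replicate 1 (0.054), 3 (0.11) or 4 (0.069). The H2-Q10 call was also lost with limma voom (adjusted p = 0.14) and voom with quality weights (0.074). Syn2 was lower as well in Cort HPD, with 31.2 to 38.0 CPM against 49.2 to 63.2 CPM in Cort NPD (log2 difference -0.70, SE 0.16, edgeR adjusted p = 0.030). Timp4, which lies inside it, differed by -0.03 (SE 0.14, edgeR adjusted p = 0.98), and the part of shared reads in either value was not tested.

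Of 30 interferon-stimulated genes, the antiviral response set, Ifit3 rose, Cxcl9, Irf8, Gbp2 and Gbp7 fell, and the median log2 fold change was -0.05, against -1.08 in Cort NPD and 0.41 in Veh HPD. Ifit3 was not called when any 1 of the 8 libraries was left out, nor with the replicate block, RLE factors, voom or no filter, 3 genes rose with the 2 groups alone, and 2 genes were called lower without Veh NPD replicate 2 or Cort HPD replicate 4. Isg15, a ubiquitin-like modifier, was at 14.4, 9.83, 14.7 and 10.3 CPM in Veh NPD, 14.1, 23.9, 25.0 and 27.2 CPM in Cort HPD and 2.98 to 7.41 CPM in Cort NPD. Its difference from Veh NPD was 0.87 on the log2 scale (SE 0.34, edgeR adjusted p = 0.14; 0.027 with the 2 groups alone, where it was called), and that from Cort NPD 2.15 (SE 0.36, edgeR adjusted p = 0.0046). Isg15, Rsad2 and Gbp7 were the 3 members that passed the test between the cort groups, all higher in Cort HPD, against 0.199% of all genes. Ifi203, an interferon-inducible DNA sensor family gene, was at 57.1, 42.8, 82.1 and 65.2 CPM in Veh NPD, 55.4, 54.0, 47.7 and 38.9 CPM in Cort HPD and 17.2 to 21.5 CPM in Cort NPD. Its level in Cort HPD overlapped control (log2 fold change -0.34, SE 0.20, edgeR adjusted p = 0.39) and was 1.33 above Cort NPD (SE 0.21, edgeR adjusted p = 0.0027). Isg15 and Ifi203, like Pcx, Pfkl, Plin2 and Mpc1 below, were chosen after their values were seen.

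Kcnj15, Pfkl, Pcx and Plin2 were lower in Cort HPD than in Cort NPD by the test and were not called against Veh NPD. Kcnj15, an inward rectifier potassium channel, was at 65.0, 73.6, 82.4 and 67.0 CPM in Veh NPD, 69.8, 91.6, 73.8 and 68.99 CPM in Cort HPD and 123 to 207 CPM in Cort NPD. The log2 fold change was 0.08 against Veh NPD (SE 0.17, edgeR adjusted p = 0.88, and -0.02 without Cort HPD replicate 2) and -1.12 against Cort NPD (SE 0.17, edgeR adjusted p = 0.0020). Pfkl, the liver-type phosphofructokinase, was at 65.5, 58.0, 64.3 and 55.2 CPM in Veh NPD, 47.6, 60.6, 66.3 and 64.2 CPM in Cort HPD and 96.0 to 114 CPM in Cort NPD, a log2 difference between the cort groups of -0.85 (SE 0.15, edgeR adjusted p = 0.0041). From Veh NPD it differed by -0.03 (SE 0.15), and by 0.01, 0.00 and 0.06 without Veh NPD replicate 1, Veh NPD replicate 3 and Cort HPD replicate 1. Pcx, pyruvate carboxylase, was at 361, 359, 259 and 318 CPM in Veh NPD, 251, 291, 222 and 239 CPM in Cort HPD and 447 to 516 CPM in Cort NPD (between the cort groups -0.91, SE 0.15, edgeR adjusted p = 0.0030). Plin2, a coat protein of lipid droplets, was at 326, 227, 222 and 232 CPM, 220, 222, 214 and 190 CPM and 322 to 386 CPM in the same order (between the cort groups -0.72, SE 0.12, edgeR adjusted p = 0.0035). A p above the threshold against Veh NPD does not show that Cort HPD equals control. Of the glycolysis list, 5 of 26 genes were lower in Cort HPD than in Cort NPD (Gapdh, Pcx, Pfkl, Aldoa and Pkm) and none was higher. Over all genes 0.285% were lower and 0.199% higher.

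Fabp5, Mpc1, Marc1, Scd1 and Cidea were lower in Cort HPD than in Veh NPD and than in Cort NPD by the test. Fabp5 was at 106, 97.5, 133 and 115 CPM in Veh NPD, 83.2, 83.9, 82.0 and 64.4 CPM in Cort HPD and 135 to 163 CPM in Cort NPD. In Veh HPD it was at 58.6, 49.7, 61.03 and 79.8 CPM, where it fell from Veh NPD by 0.86 (SE 0.14, edgeR adjusted p = 0.0054). It was 0.92 lower than in Cort NPD on the log2 scale (SE 0.14, edgeR adjusted p = 0.0013), and its fall of 0.53 from Veh NPD (SE 0.14, edgeR adjusted p = 0.019) was not called without Veh NPD replicate 3 (adjusted p = 0.086) or Cort HPD replicate 4 (0.071). Mpc1, a subunit of the mitochondrial pyruvate carrier, was at 58.7, 58.7, 54.9 and 52.2 CPM in Veh NPD and 26.1, 40.2, 23.4 and 43.6 CPM in Cort HPD, against 57.5 to 81.9 CPM in Cort NPD and 32.1 to 52.0 CPM in Veh HPD (between the cort groups -1.06, SE 0.18, edgeR adjusted p = 0.0035). Marc1, a mitochondrial reductase, was at 16.3, 13.8, 17.3 and 20.0 CPM in Veh NPD and fell to 5.65, 5.47, 6.25 and 7.47 CPM in Cort HPD, with 18.2 to 42.6 CPM in Cort NPD and 5.48 to 10.3 CPM in Veh HPD. Its log2 fold change from Veh NPD was -1.43 (SE 0.25, edgeR adjusted p = 5.7e-04). Scd1 had a log2 fold change of 0.00 in Cort NPD, -0.50 in Veh HPD and -1.26 in Cort HPD. The difference of Scd1 between the cort groups (-1.26, SE 0.26, edgeR adjusted p = 0.041) was not called in 7 of the 8 fits that left out 1 of their libraries, all but that without Cort HPD replicate 2, with adjusted p from 0.063 without Cort NPD replicate 2 to 0.14 without Cort NPD replicate 1 or 4. Nor was Scd1 called by edgeR with library totals (adjusted p = 0.066), no filter (0.11) or the 2 groups alone (0.23). Cidea lay at 1.51 to 6.39 CPM in Cort NPD, and its difference (-2.90, SE 0.62, edgeR adjusted p = 0.024) was not called without Cort NPD replicate 1 (0.11) or 3 (0.078) or Cort HPD replicate 3 (0.087) or 4 (0.073). The Cidea call was also lost with limma voom (adjusted p = 0.18), voom with quality weights (0.13) and edgeR on the 2 groups alone (0.087).

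Red blood cell genes rose in the combined state and lay near control in Cort NPD. Of 8 tested, 7 rose against Veh NPD (among them Alas2, Hbb-bt, Hba-a1, Hba-a2, Hbb-bs and Slc4a1), against 3.33% of all genes. The same 7 were higher than in Cort NPD, against 0.199% of all genes. The median log2 fold change was 1.91 in Cort HPD, -0.26 in Cort NPD and 0.44 in Veh HPD. The list of 10 genes summed to 12700 to 25890 CPM in Cort HPD, 3893 to 7138 CPM in Veh NPD, 3622 to 6496 CPM in Cort NPD and 5257 to 9282 CPM in Veh HPD. Alas2, the erythroid enzyme of haem synthesis, was at 18.6, 28.7, 30.3 and 15.6 CPM in Veh NPD and 58.8, 112, 60.8 and 81.0 CPM in Cort HPD (log2 fold change 1.74, SE 0.26, edgeR adjusted p = 2.9e-04). Hba-a1, an alpha globin gene with a near-identical copy, was at 570, 1050, 1030 and 618 CPM and rose to 1988, 3934, 2446 and 3230 CPM (log2 fold change 1.83, SE 0.28, edgeR adjusted p = 9.1e-04). Slc25a37, mitoferrin, which brings iron to mitochondria, was at 20.9, 19.7, 24.7 and 19.1 CPM and rose to 37.0, 61.9, 65.7 and 70.3 CPM (log2 fold change 1.48, SE 0.18, edgeR adjusted p = 3.6e-06). Bpgm, which makes the allosteric effector of haemoglobin, rose by 1.31 (SE 0.19, edgeR adjusted p = 7.2e-05). Cort HPD replicate 2 was the highest library for Alas2 and Hba-a1, and replicate 1 the lowest for all 4 genes. These are abundant in blood, and the part of blood left in the tissue was not tested.

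Gsn, gelsolin, an actin severing protein of adipocytes and plasma, was highest in Cort HPD. It was at 5150, 6298, 4012 and 4886 CPM in Veh NPD, 10700, 9154, 11120 and 9695 CPM in Cort HPD, 4497 to 6519 CPM in Cort NPD and 6913 to 8350 CPM in Veh HPD. Gsn rose by 0.999 on the log2 scale against Veh NPD (SE 0.14, edgeR adjusted p = 2.5e-05) and was 0.90 above Cort NPD (SE 0.14, edgeR adjusted p = 0.0013). Every Cort HPD library was above every library of the other 3 groups.

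**Figure D5:**
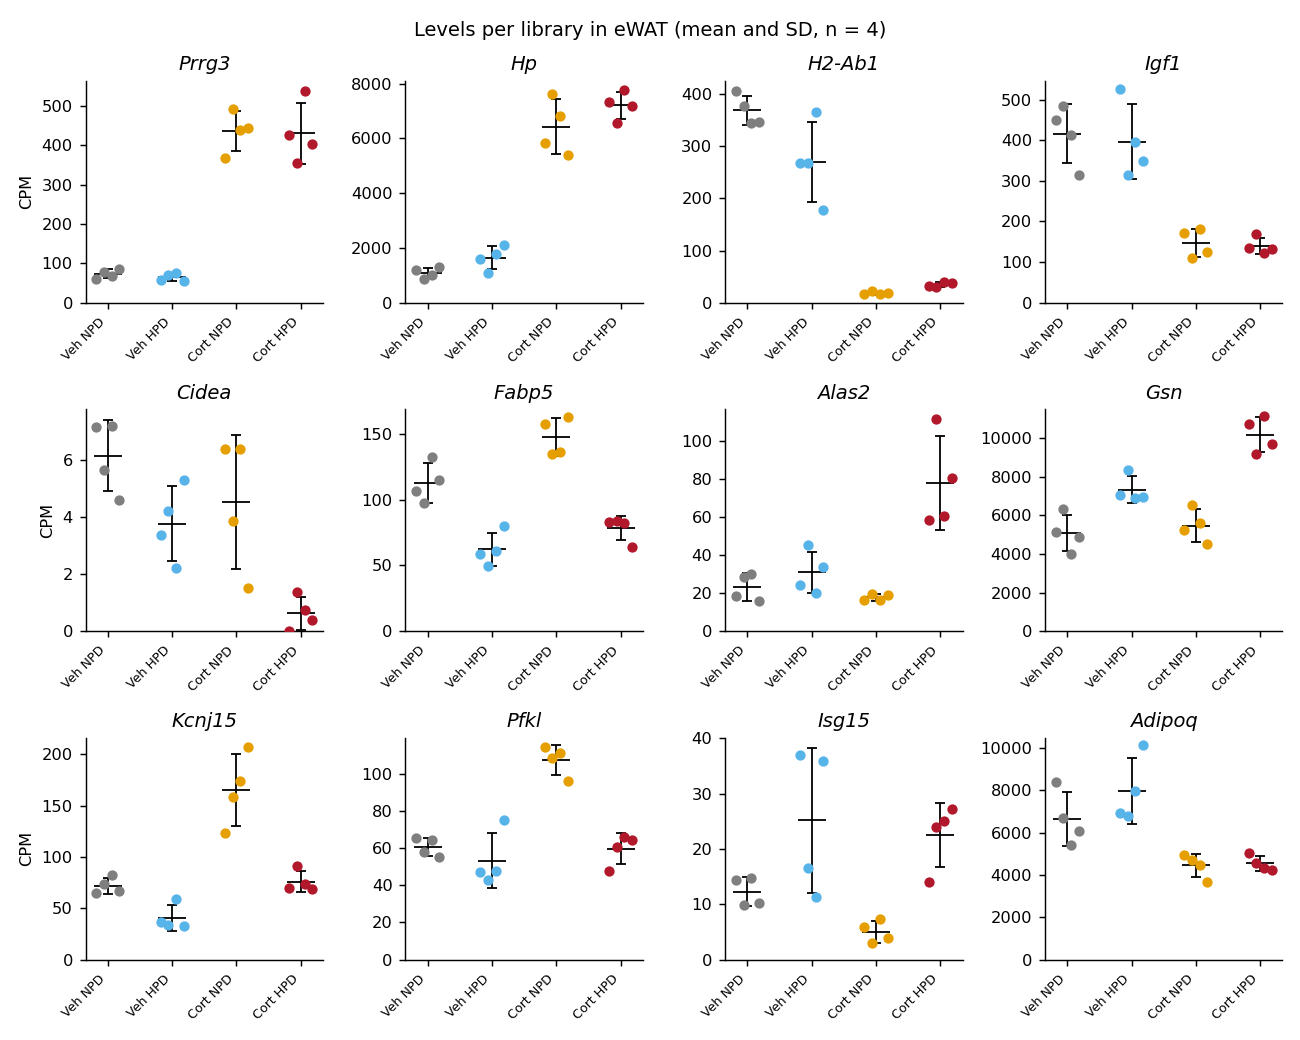
CPM of 12 genes in each of the 16 eWAT libraries, with 1 point per library and the mean and SD of each group of 4; all axes start at 0. Prrg3 and Hp are high in both cort groups, H2-Ab1 and Igf1 low in both, Kcnj15 and Pfkl are high in Cort NPD alone among the group means, and Alas2 and Gsn are highest in Cort HPD.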

How the data were processed

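The study sequenced 3′ QuantSeq libraries from eWAT and liver, and 8 eWAT libraries were compared here within a fit of 16. The authors deposited raw counts per gene for each library, with no normalization. The submitters' processing notes name R and limma with no role, and the aligner and the strand setting of counting are not given in the sources used here. Totals of the 8 libraries ran from 9794683 to 16468871 counts, and their number limits precision. Genes were filtered with filterByExpr (minimum count 10, minimum total 15), scaled with TMM factors (0.928 to 1.06) and tested with edgeR 4.0.16 in R 4.3.3. The quasi-likelihood fit took the 4 eWAT groups together, with Benjamini-Hochberg adjusted p under 0.05 over all 15187 genes tested. Genes that were set aside stayed in the fit and out of the counts. The lists, the groups and the rules were chosen with earlier results of these data known. Named genes were the 12 non-overlapping called genes with the smallest p in each direction, up to 4 members of each list with the smallest p, up to 4 called genes in each direction between the cort groups, and 6 fixed genes (Nr3c1, Adipoq, Lep, Pparg, Fkbp5 and Tsc22d3); others were named after their values were seen or to account for the members called. The alternatives were RLE factors, library totals, DESeq2 1.42.0, limma 3.58.1 with voom and with quality weights, no filter, the 2 groups alone, a replicate block and leaving out each library. On simulated counts with 200 of 14632 genes changed by 2 on the log2 scale, 98.5% were recovered for Cort HPD against Veh NPD with 3.90% false calls. The simulation gave every gene the same spread, below the biological coefficient of variation of 0.372 in the data, and changed only genes above a minimum expected count. The called genes had median changes of 0.78 and -0.97, so these rates do not describe smaller changes or sparser genes. The labels do not say whether the samples of a group are separate animals, and p-values measure the spread between these samples. Columns of per-sample values left without a sample numbered 0. Promoter windows came from RefSeq (GRCm38.p6), and gene names and positions from the reference name table and the GENCODE annotation of GRCm38, matched by Ensembl ID for 47224 of 47643 genes. A few genes that the rule names are not reported here.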

Additional observations from a re-analysis of the deposited data

Results flagged for a closer look

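In 204 groups of 4 libraries, one for each named gene or marker sum in each group, 12 held a library far from the others by Dixon's ratio of gap over range, and chance flags about 1 in 20 such groups. The marker sums that stood apart were the epididymis sum in Cort HPD replicate 4 (40270 CPM, others 5.57 to 26.4), the lymph node B cell sum (55.1 CPM, others 2.83 to 5.93) and the endothelium sum (1517 CPM, others 884 to 947) in Veh NPD replicate 3, and the mesothelium sum in Veh NPD replicate 1 (350 CPM, others 184 to 207). Among genes in Cort HPD replicate 4, H2-DMa was high (14.9 CPM, others 4.74 to 6.38), and Mgl2 (37.0 CPM, others 46.0 to 47.1) and Fabp5 (64.4 CPM, others 82.0 to 83.9) were low. In Veh NPD replicate 1, Cebpa (408 CPM, others 321 to 331) and Plin2 (326 CPM, others 222 to 232) were high. Veh NPD replicate 2 was low for Tmem176a (35.7 CPM, others 44.0 to 44.6) and high for Pparg (254 CPM, others 91.2 to 118), and Veh NPD replicate 3 was high for Ltbp4 (157 CPM, others 107 to 112).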

How the results depend on the processing

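The causes of the changes given here were not tested. For Cort HPD against Veh NPD the total number of genes called was 670 to 878 when 1 library was left out (325 to 440 higher, 343 to 454 lower), 1013 with the genes set aside kept in, 1285 with DESeq2 and 946 to 1208 under the other alternatives. For Cort HPD against Cort NPD it was 26 to 77 (14 to 33 higher, 12 to 44 lower) when 1 library was left out, 192 with DESeq2 (86 higher, 106 lower), 142 with voom and quality weights (50 higher, 92 lower) and 165 with the 2 groups alone (57 higher, 108 lower). Isg15 was called with the 2 groups alone (0.86, edgeR adjusted p = 0.027). Direction turned, for genes that were not called, in Kcnj15 (-0.02 without Cort HPD replicate 2; range when 1 library was left out -0.02 to 0.15), in Tsc22d3 (-0.02 with library totals, -0.11, -0.17 and -0.06 without Veh NPD replicates 1 and 3 and Cort HPD replicate 3, range -0.17 to 0.20) and in Pfkl (0.01 and 0.00 without Veh NPD replicates 1 and 3, 0.06 without Cort HPD replicate 1, range -0.09 to 0.06). When 1 library was left out, list medians ran from -0.43 to 0.082 for receptor targets, -0.23 to 0.10 for acute phase and complement, -3.48 to -2.70 for MHC class II, -1.04 to -0.60 for class I, -0.39 to -0.21 for macrophage and dendritic cell markers, -1.70 to -1.33 for lymphocyte markers, -0.14 to 0.021 for lipid uptake, -0.40 to -0.15 for adipokines, 0.086 to 0.29 for adipogenic factors, -0.072 to 0.28 for steroid metabolism and 0.12 to 0.37 for amino acid genes. The class II median was -3.39 with voom and quality weights, the lymphocyte median -1.69 with voom, and the insulin signalling median 0.051 with library totals.

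Replicate numbers were shared between the groups. Same-numbered Cort HPD and Veh NPD libraries correlated at -0.10 to 0.06 in their deviations, and those with different numbers at -0.16 to 0.16. Veh HPD was not compared in this way. A correlation over all genes cannot exclude a shared batch or order, and whether the numbers reflect one was not tested. With the replicate block 1007 genes were called (495 higher, 512 lower), 67 between the cort groups (26 higher, 41 lower), the lymphocyte median was -1.70 with 0 markers called, Ifit3 was not called, 2 clock genes and 2 adipocyte markers rose, and Lep was called (1.31, edgeR adjusted p = 0.013).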
